A study of Rattus norvegicus with 8 samples.

Results

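The genes examined here encode the 3 structural proteins of forming enamel and the 2 proteases that remove them: amelogenin (Amelx), ameloblastin (Ambn), enamelin (Enam), matrix metalloproteinase 20 (Mmp20) and kallikrein-related peptidase 4 (Klk4). They were measured in the rat incisor enamel organ, the epithelial layer over the enamel with its ameloblasts, at the secretory and at the maturation stage. Every probe whose gene symbol was 1 of these 5, whatever its case and without the endings for predicted or mapped genes, was taken, which gave 5 genes of 21557 symbols on the array, through 6 of its 22523 probes: 1 each for Amelx, Ambn, Enam and Mmp20 and 2 for Klk4. The samples came from 4 male rats aged 4 weeks (Wistar in the labels, Wistar Hannover in the study's methods), untreated and with no genetic change named in the labels. Each rat gave a secretory-stage and a maturation-stage sample of total RNA, so that each stage had 4 arrays, and the replicate number names the rat. The mandibles had been freeze-dried and the cell layer over the enamel dissected off by position along the tooth, so a sample holds ameloblasts together with the other cells of that layer. In such bulk RNA, fewer cells of a type and less RNA per cell cannot be told apart.

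Enamel is laid down as a protein matrix that is later replaced by mineral. In the secretory stage ameloblasts release amelogenin, which makes up most of the matrix, with ameloblastin and enamelin in smaller amounts, and MMP20, which cleaves these proteins as they are deposited. In the maturation stage KLK4 degrades what remains of the matrix, its fragments are taken up, and the crystals grow in width. Variants in genes of this set are known causes of hereditary enamel defects (amelogenesis imperfecta).

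The sequence before the start of the matrix genes is shown because the 4 genes that matched the RefSeq promoter table (build GRCr8) all held the letters CCAAT, the motif of the factor NF-Y, on either strand in this window. Klk4 was not matched. Each run is the 250 bases before the annotated start, 5′ to 3′ on the strand of the gene, and the capitals mark CCAAT or its complement ATTGG. The windows are chrX:28648553-28648802 on the plus strand for Amelx, chr14:19898423-19898672 on the minus strand for Ambn, chr14:19865477-19865726 on the minus strand for Enam and chr8:13074029-13074278 on the plus strand for Mmp20.
Amelx: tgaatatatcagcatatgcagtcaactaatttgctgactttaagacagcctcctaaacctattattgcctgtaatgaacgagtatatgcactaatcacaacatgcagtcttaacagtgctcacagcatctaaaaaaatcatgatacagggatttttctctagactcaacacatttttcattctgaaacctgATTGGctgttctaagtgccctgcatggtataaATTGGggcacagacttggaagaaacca
Ambn: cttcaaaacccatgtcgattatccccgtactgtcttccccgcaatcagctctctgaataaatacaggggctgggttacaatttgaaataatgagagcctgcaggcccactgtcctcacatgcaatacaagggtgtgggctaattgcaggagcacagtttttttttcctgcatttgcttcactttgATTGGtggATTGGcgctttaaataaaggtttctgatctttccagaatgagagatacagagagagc
Enam: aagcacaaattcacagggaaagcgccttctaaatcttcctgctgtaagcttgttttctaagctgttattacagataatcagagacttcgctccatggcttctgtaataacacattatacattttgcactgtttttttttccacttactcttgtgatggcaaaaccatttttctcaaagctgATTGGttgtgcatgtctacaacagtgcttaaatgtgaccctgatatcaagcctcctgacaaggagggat
Mmp20: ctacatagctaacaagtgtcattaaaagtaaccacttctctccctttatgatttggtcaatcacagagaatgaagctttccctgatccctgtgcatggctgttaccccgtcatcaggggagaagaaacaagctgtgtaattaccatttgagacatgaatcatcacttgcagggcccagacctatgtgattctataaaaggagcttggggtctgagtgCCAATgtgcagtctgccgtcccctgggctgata
Counted back from the start, the first letter of the motif lay 59 and 27 bases before it in Amelx, 65 and 57 in Ambn, 69 in Enam and 33 in Mmp20. It was read as ATTGG in Amelx, Ambn and Enam and as CCAAT in Mmp20. Of 33469 promoters of the same length, 34% held this motif, so it is common and its presence describes the windows only.

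The other motifs searched on both strands gave a mixed picture. TATAAA, the TATA box, was in Amelx, 32 bases before the start, and in Mmp20, 59 bases before it, and in 12.9% of all promoters. In Amelx the TATA box shares 1 base with the ATTGG at 27. TTNNGNAA, the motif of the C/EBP factors, was in Amelx, Ambn and Enam and in 37.2% of all promoters. TAATTA, a homeodomain motif, was in Mmp20 alone among the 4, 114 bases before the start, and in 4.86% of all promoters. TGTGGT (RUNX) and GGGCGG (SP and KLF factors) were in none of the 4 windows, against 14.5% and 30.5% of all promoters. A match is a match of letters and not a measured binding site.

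The deposited values were mean bead signals, 41 to 42 beads per probe at the median, without background correction. They were background-corrected, quantile-normalized and put on a log2 scale, and each probe was tested with limma. Calls needed at least a 1.8-fold change together with an adjusted p (Benjamini-Hochberg over all 22523 probes) under 0.05, and changes are given as maturation minus secretory. Summed signal was 11881691 to 12046793 on the secretory arrays and 13355073 to 16122665 on the maturation arrays, and 10667 to 10941 and 11164 to 11450 probes were detected (detection p below 0.05). For replicates 2, 3 and 4 of the maturation stage, 1 label (the source name) reads secretory while title, description and tissue read maturation. The title was followed, and 8 of 8 arrays correlated more with their own stage. Over all probes 1035 were called higher and 710 lower, a split that became 2268 and 332 without normalization between arrays.

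Of the 6 probes, 2 were called lower in maturation (Enam and Mmp20), 2 were called higher (both of Klk4), and 2 were not called (Amelx and Ambn). Over all probes, 3.15% were called lower and 4.6% were called higher. The stages did not overlap for 3 probes that were lower (Amelx, Enam and Mmp20), against 14.6% of all probes, and for 2 that were higher (Klk4), against 13.1%.

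**Figure D1:**
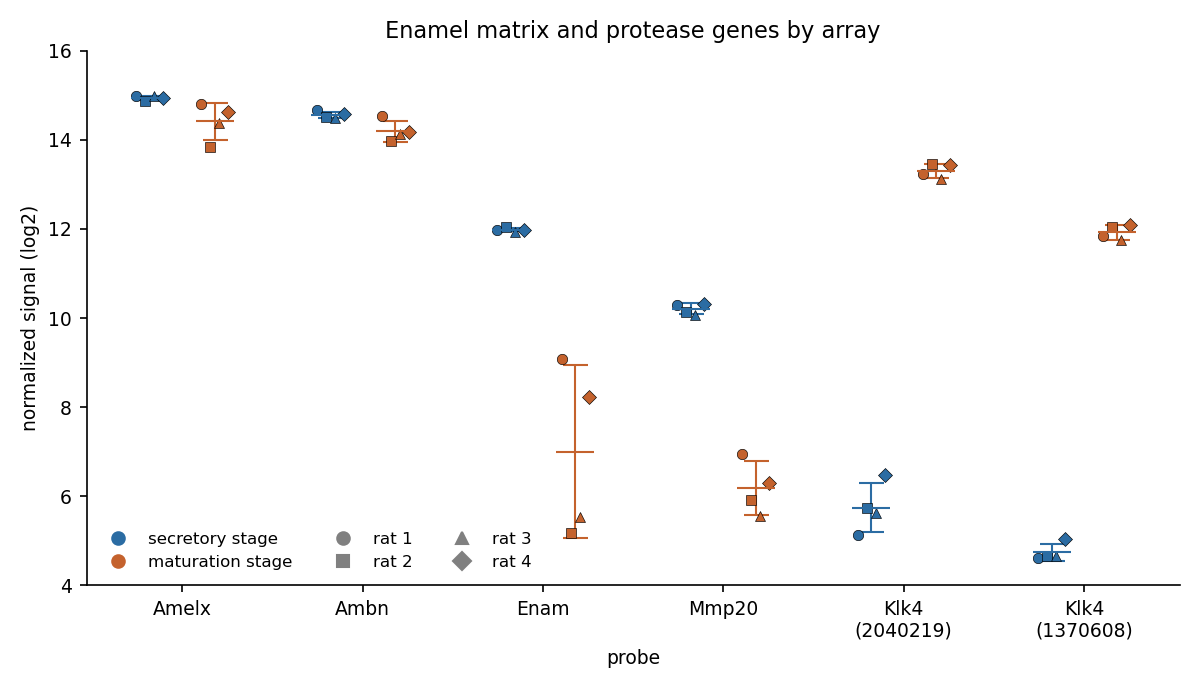
Normalized signal (log2) of the 6 probes on the 8 arrays. Blue points are secretory and orange points maturation arrays, the shape of a point names the rat, and the long and short lines give mean and SD of 4 arrays. Enam spread from 5.17 to 9.08 over the maturation arrays, while the Klk4 probes stood above 11.7 on all maturation arrays and below 6.5 on all secretory arrays.

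Amelx (chromosome X in the array's annotation) encodes amelogenin. Its normalized log2 signal was 14.98, 14.87, 14.98 and 14.94 in secretory replicates 1 to 4 and 14.81, 13.83, 14.38 and 14.62 in maturation replicates 1 to 4. All 4 maturation values lay below the lowest secretory value, but replicate 1 did so by a small margin. The means were 14.94 ± 0.0511 and 14.41 ± 0.422 (SD, n = 4), and the change was -0.53 (SE 0.178, 95% confidence interval -0.93 to -0.13, limma adjusted p = 0.0555), or 1.44-fold lower. Amelx therefore met neither threshold. A two-sided exact permutation test of the 8 values gave p = 0.0286, the smallest that 4 arrays against 4 allow. This test, here and below, does not use the pairing of samples by rat. Within a rat the difference, maturation minus secretory, was -0.17, -1.03, -0.59 and -0.32 for rats 1, 2, 3 and 4.

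Ambn (chromosome 14) encodes ameloblastin, a protein needed for ameloblasts to stay attached to the matrix. Its log2 signal was 14.66, 14.52, 14.49 and 14.58 in the secretory samples and 14.53, 13.96, 14.13 and 14.17 in the maturation samples. Maturation replicate 1 fell within the secretory range, and the other 3 maturation values were below it. The change was -0.36 (SE 0.110, interval -0.61 to -0.12), or 1.29-fold lower, with a limma adjusted p of 0.0353, under the fold required for a call. The exact permutation test gave p = 0.0857 (two-sided). Within a rat the difference, maturation minus secretory, was -0.13, -0.55, -0.36 and -0.40 for rats 1, 2, 3 and 4, lower in all 4.

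The calls of Amelx and Ambn depended on the scaling. When each array was scaled to its median in place of quantile normalization, the changes were -1.12 (limma adjusted p = 2.70e-04) and -0.89 (6.23e-05), and both probes passed both thresholds. Both changes kept a negative sign under every background correction and normalization tried. With the replicate number as a block the changes were the same size, with limma adjusted p = 0.0321 for Amelx and 0.0163 for Ambn, and neither reached 1.8-fold.

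**Figure D2:**
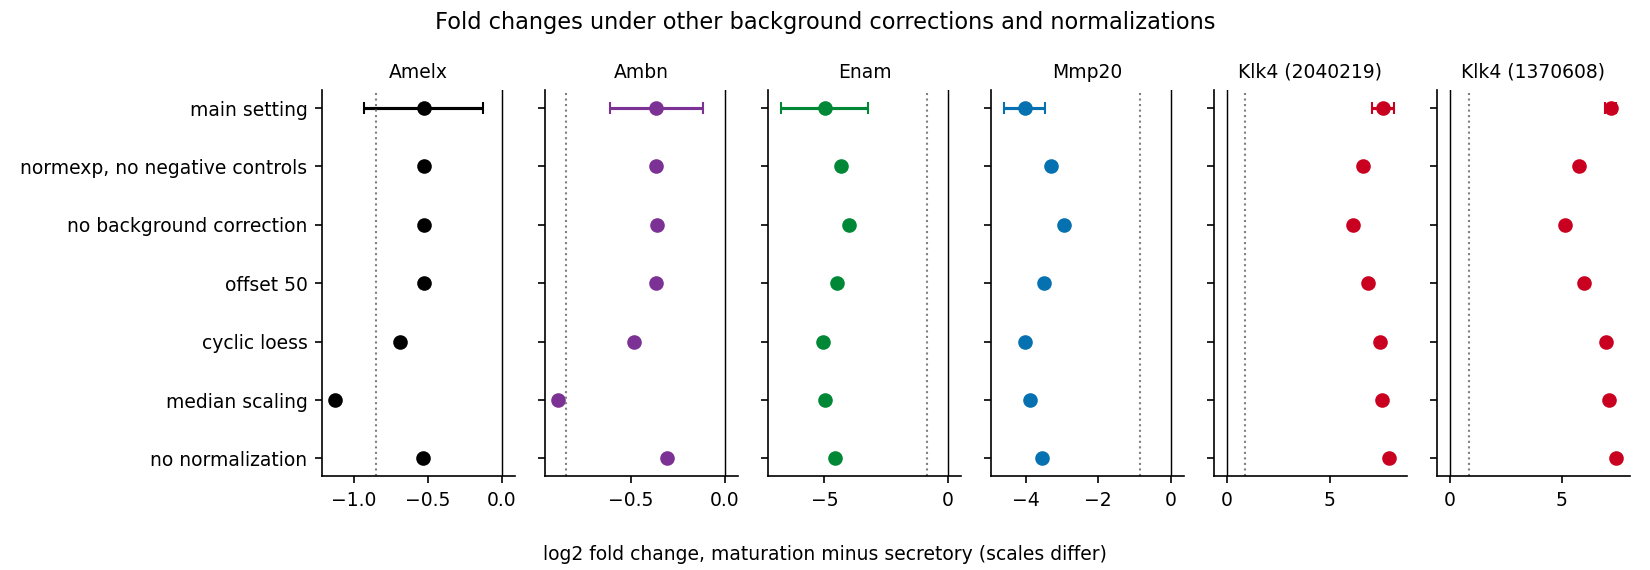
Log2 fold change (maturation minus secretory) of each probe under the main setting, with its 95% confidence interval, and under 6 other background corrections and normalizations. The dotted line marks 1.8-fold and each panel has its own horizontal scale. Amelx and Ambn lie past the dotted line with median scaling only, and the other 4 probes lie past it throughout.

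Both bright matrix genes were examined for saturation, since a signal near the top of the scanner's range would make a fold too small. The deposited signal of Amelx was 32636, 30677, 32734 and 32934 on the secretory arrays and 30510, 15456, 20445 and 25682 on the maturation arrays. On the secretory arrays it ranked 1 to 3 among all probes, at 98.3% to 100% of the highest signal of the array. On the maturation arrays it ranked between 5 and 102, at 46.9% to 90.1%. The highest signal of an array ranged from 30310 to 33855, and 2 to 7 probes per array reached 90% of it. The 4 secretory values of Amelx and that of maturation replicate 1 were at 90% or more, and no value of the other 5 probes was.

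The spread among the beads of Amelx on the secretory arrays was narrower than the median of the brightest probes and that of a dimmer class. Its coefficient of variation over beads was 17.02%, 16.2%, 18.4% and 15.4% on secretory arrays 1 to 4 and 13.6% to 19.2% on the maturation arrays. On the same secretory arrays the median over probes with signals of 25000 or more was 18.2%, 19.7%, 18.6% and 17.4%, and that over probes from 2000 to 5000 was 20.1%, 19.8%, 19.0% and 19.4%. Amelx was below both medians on 4 of 4 secretory arrays. On secretory array 3 it was above the medians over probes from 5000 to 15000 (18.1%) and from 15000 to 25000 (17.2%). On the maturation arrays it was also below the median of its own signal class on replicates 1 (16.95% against 17.8%), 3 (19.2% against 19.5%) and 4 (13.6% against 17.96%) and above it on replicate 2 (18.6% against 18.1%). Whether the response of the scanner flattens below its limit was not tested, and no deposited value shows it directly.

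Ambn was lower in the range, at 22805 to 25362 on the secretory arrays (rank 15 to 28, 69.7% to 77.7% of the highest signal) and 16566 to 25797 on the maturation arrays. Among the 42 probes with a mean secretory signal of 20000 or more, 2 were called lower, Akr1c12 (-1.74) and Plod2 (-1.71), against 3.15% of all probes. By limma 0 were called higher, against 4.6%. Of the 42, 15 had a negative change with a limma adjusted p under 0.05, and the median change was -0.12. Over all 22523 probes 6051 had an adjusted p under 0.05, in either direction. The 42 were picked by a high secretory signal alone, which favours lower values in maturation. Their counts and order therefore describe the class only. In the order of their changes from the lowest, Amelx was number 4 and Ambn number 7 of these 42.

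**Figure D3:**
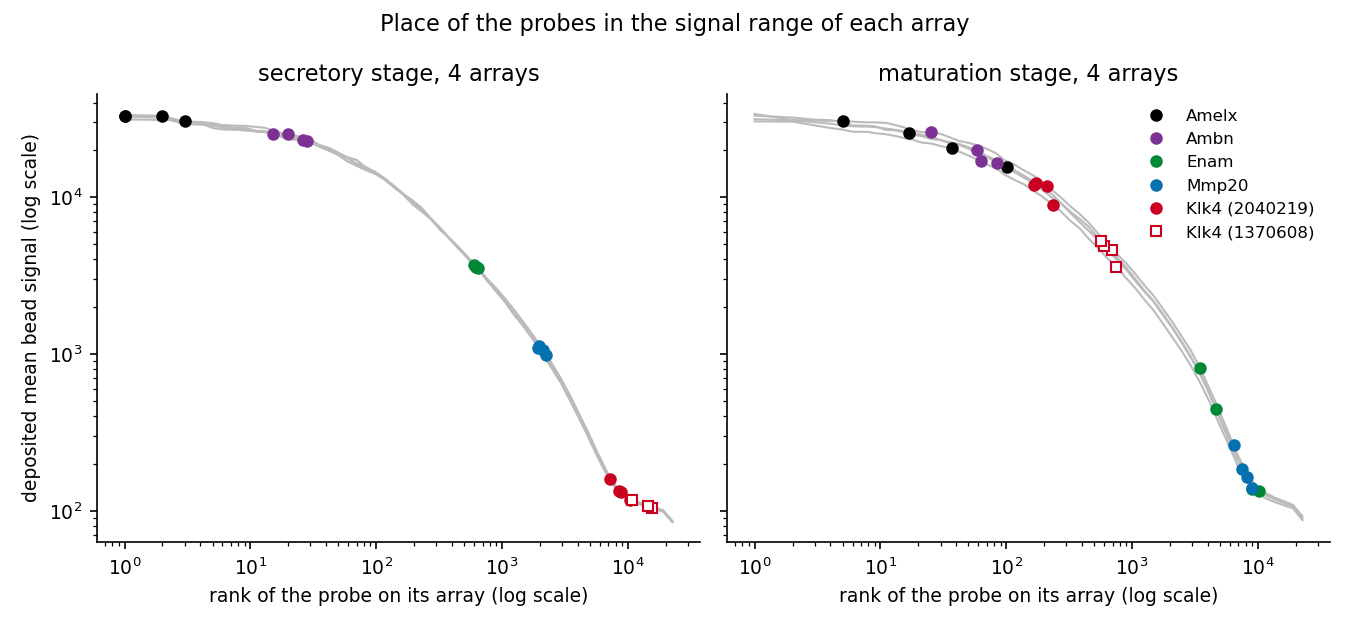
Deposited mean bead signal of every array against the rank of the probe (grey lines, both axes on log scales), with the 6 probes marked. Amelx (black) stands at rank 1 to 3 on the secretory arrays and at rank 5 to 102 on the maturation arrays. Enam (green) stands at rank 599 to 642 on the secretory and 3463 to 10185 on the maturation arrays. Mmp20 (blue) stands at rank 1941 to 2213 and 6409 to 8971, and Klk4 (red) moved the other way.

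Enam (chromosome 14) encodes enamelin, the largest of the matrix proteins, which is required for mineral to form at the ameloblast surface. Its log2 signal was 11.98, 12.03, 11.94 and 11.98 in the secretory samples and 9.08, 5.17, 5.53 and 8.22 in the maturation samples. No maturation value came near the secretory range, but replicates 1 and 4 were far above replicates 2 and 3. The deposited signals were 3592, 3711, 3551 and 3569 against 816, 133, 138 and 448. Enam was detected on all 8 arrays. By the paper's methods, PCR for Enam had served to check these RNA pairs before profiling. It was evident in the secretory and negligible in the maturation stage. The direction of its fall on the arrays is therefore not independent of that check.

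The change of Enam was -4.98 on the log2 scale (SE 0.786, interval -6.75 to -3.21, limma adjusted p = 9.82e-04), or 31.7-fold lower with an interval of 9.28 to 108. It ranked 6 among the falls of all probes. The secretory samples varied by an SD of 0.0378 and the maturation samples by 1.95, with a 15.1-fold range over the 4 maturation samples. That range is on the background-corrected scale, and in the deposited signals it was 6.12-fold. Without maturation replicate 1 the change was -5.68, and without replicate 2 it was -4.38, and the probe was called in both. The exact permutation p was 0.0286 (two-sided). The size of the fall depended on the background: the change was -4.02 without background correction, and the ratio of the deposited means, secretory over maturation, was 9.39.

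Mmp20 (chromosome 8) encodes the protease of the secretory stage. Its log2 signal was 10.30, 10.14, 10.07 and 10.31 in the secretory samples and 6.96, 5.92, 5.55 and 6.30 in the maturation samples. The stages were far apart, and the maturation samples again spread more. The change was -4.03 (SE 0.252, interval -4.59 to -3.46, limma adjusted p = 2.55e-06), or 16.3-fold lower, with rank 19 among the falls. The difference within a rat was between -4.52 and -3.35 in all 4 rats. Without background correction the change was -2.94, so its size, though not its direction or call, depended on that step.

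Klk4 (chromosome 1) encodes the protease of the maturation stage. With the first probe, ILMN_2040219, the log2 signal was 5.14, 5.74, 5.61 and 6.47 in the secretory samples and 13.23, 13.45, 13.12 and 13.43 in the maturation samples. The second, ILMN_1370608, gave 4.61, 4.66, 4.66 and 5.03, then 11.84, 12.03, 11.74 and 12.10. The stages were separated by several log2 units with both probes.

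The first Klk4 probe was detected on all 8 arrays and rose by 7.57 (SE 0.236, limma adjusted p = 4.79e-08), or 189-fold, with rank 3 among all rises on the array. In the deposited signals, with their background left in, the ratio of the means was 82.8, and without background correction the change was 6.13 on the log2 scale. The second probe was not detected on any secretory array, so no exact fold can be given (limma adjusted p = 3.68e-09). Its maturation mean was 118-fold above the lowest normalized signal of a detected probe on the secretory arrays, a value that depends on the background correction. The ratio of the deposited means, with their background left in, was 42.1, and the fitted change was 5.13 without background correction and 6.01 with an offset of 50. Both probes carry the same gene ID and rose in all 4 rats.

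The maturation samples of the 4 rats had the same order for the 3 matrix genes. Amelx, Ambn and Enam were each highest in replicate 1, then 4, then 3, then 2, and Mmp20 had replicate 1, then 4, then 2, then 3. Probes of other genes with similar profiles shared the order of Amelx, Ambn and Enam, among them Rps9, Spred2, Cd24 and Acp4. Others, such as Fgfr4 and Chst1, had that of Mmp20. The share of all probes with either order was not counted. The Klk4 probes were ordered differently, with replicate 3 lowest and replicate 1 next. In the secretory samples no order was shared by the matrix genes. The summed level of the dental epithelial markers, mostly that of Krt14, was lowest in maturation replicate 1 (27009 against 30943 to 31378). That of the maturation ameloblast markers was lowest there too (8369 against 9396 to 10094). That of the odontoblast and osteoblast markers was 43715 there and 40531 in replicate 4, within 40531 to 43926. The fibroblast markers (60887, 56012, 56047 and 58501 in maturation replicates 1 to 4) had the order of Amelx, Ambn and Enam. So did the number of probes detected (11450, 11164, 11325 and 11432). The other marker sums were ordered otherwise. The part of these levels in the order was not tested.

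Whether 2 genes changed unequally was examined for 10 pairs, by the difference of their log2 signals within each array (two-sided exact permutation test, Benjamini-Hochberg over the 10). For 8 pairs the changes differed at an adjusted p of 0.0357, all but Amelx with Ambn and Enam with Mmp20, and all 4 rats shared the direction in those 8. Each of the 8 was at the smallest unadjusted p that 4 arrays against 4 allow (0.0286). The test treats the 8 arrays as unpaired, although each rat gave both stages. Enam fell by 4.46 more than Amelx and by 4.62 more than Ambn, and Mmp20 by 3.50 and 3.66 more. Amelx and Ambn differed by -0.16 (exact adjusted p = 0.286, 3 of 4 rats in that direction), and Enam and Mmp20 by -0.96 (exact adjusted p = 0.429, 2 of 4 rats). Leaving out 1 array gave -0.24 (without maturation replicate 4) to -0.04 (without maturation replicate 2) for Amelx minus Ambn, and -1.40 (without maturation replicate 1) to -0.45 (without maturation replicate 2) for Enam minus Mmp20. Since secretory Amelx was near the top of the scale, the check for saturation above bears on its differences.

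The list of other enamel genes held secreted enamel proteins and genes of hereditary enamel defects. Of 22 genes, 17 were on the array, and 3 rose, 6 fell and 8 were not called, against 4.6% called higher and 3.15% called lower over all probes. The median change was -0.10, against -0.01 over all probes. Slc24a4, a calcium exchanger of maturation ameloblasts, rose by 5.07, Wdr72, which serves vesicle traffic, by 1.75, and Stim1, the calcium sensor of store-operated entry, by 1.70. Acp4, an acid phosphatase, had a change of -4.16, Relt of -2.09, the secretory pathway pseudokinase Fam20a of -1.80, the integrin subunit Itgb6 of -1.59, the secretory pathway kinase Fam20c of -1.33 and the laminin chain Lamb3 of -1.26. Fam83h (0.82), Rogdi (0.79), Orai1 (0.25) and Col17a1 (-0.27) were not called. No probe was found for Amtn, Odam, Odaph, Tuft1 or Cnnm4.

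Among regulators of transcription described for these genes, 17 of 18 were on the array, and 2 rose, 1 fell and 14 were not called (median change 0.14), against 4.6% called higher and 3.15% lower over all probes. The forkhead factor Foxo1 rose by 1.12 and Runx1 by 1.11, and the chromatin organizer Satb1 fell by 2.63. The homeobox genes Msx2 (-0.20) and Dlx3 (-0.08) and the C/EBP gene Cebpb (0.64) were not called. Sp6, a factor of dental epithelium, was not called and was not detected in the maturation samples, where it was at least 1.44-fold lower on the background-corrected scale.

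Of the partners in proteolysis, 10 of 12 listed were on the array, and 5 rose, 0 fell and 5 were not called by limma, with a median change of 0.75. Over all probes 4.6% were called higher and 3.15% lower, so that no fall among 10 genes is near the background. Timp3, an inhibitor of metalloproteinases, rose by 3.42, Mmp9, a gelatinase, by 2.998, Serping1, the inhibitor of complement C1, by 2.53 and Mmp14, a membrane-bound metalloproteinase, by 0.90. A2m, which traps proteases of many classes, was not detected in the secretory samples and was at least 2.47-fold higher in maturation on the background-corrected scale. Ctsc, the cathepsin that activates several serine proteases, had a change of 0.60 and was not called. Of 6 genes for the uptake and breakdown of matrix, Lamp1, a lysosomal membrane protein, rose by 1.69, and Lamp2 (0.42), Scarb2 (0.56), Lrp1 (0.65) and Cd63 (0.20) were not called, nor was Lamp3, which was detected on 1 array.

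**Figure D4:**
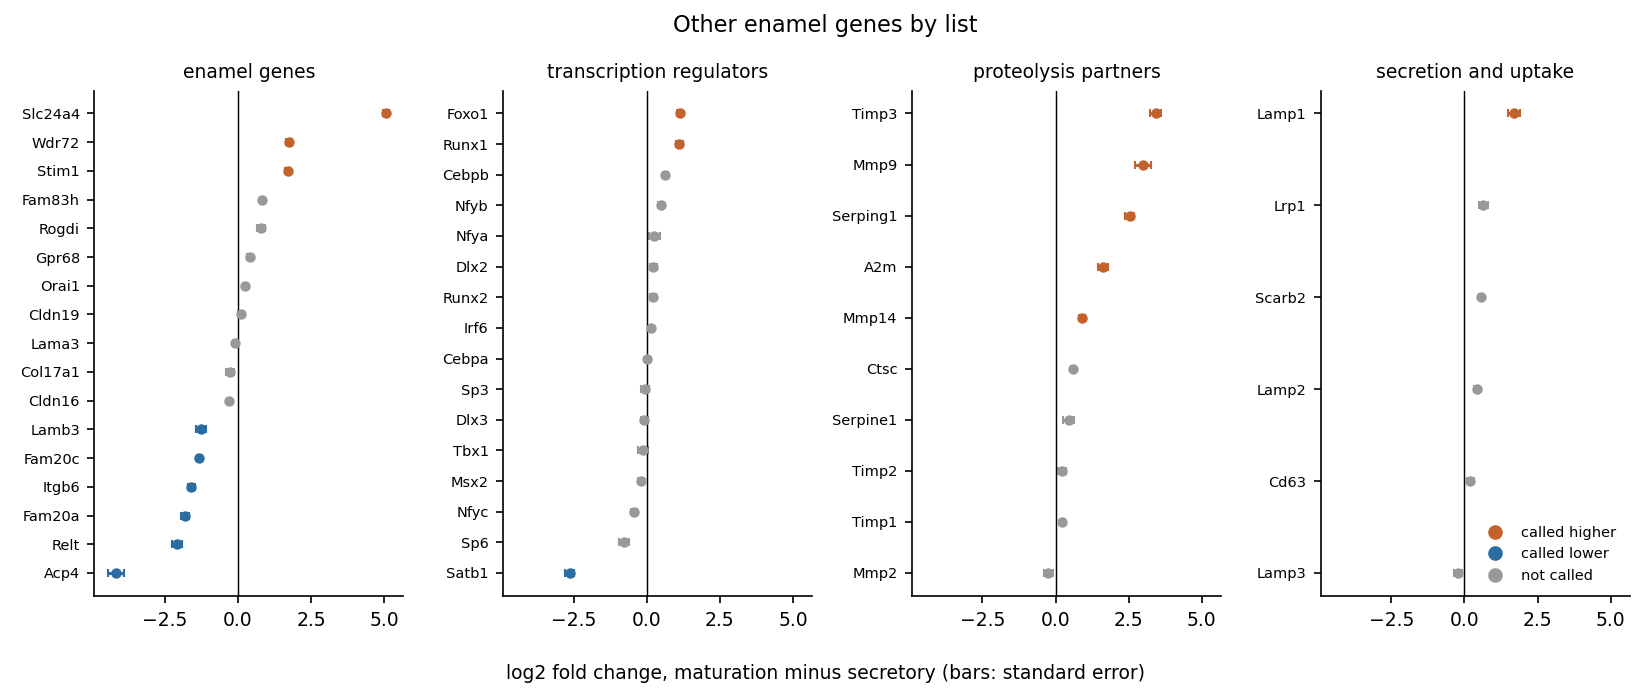
Log2 fold change (maturation minus secretory) of the genes of 4 lists, with 1 regulator not shown, and standard errors, orange where called higher, blue where called lower and grey where not called. All values are fitted ones, also for genes not detected in a stage, such as A2m in the secretory and Sp6 in the maturation samples. Slc24a4 (5.07) and Acp4 (-4.16) are the ends of the first list, and all 5 called partners in proteolysis are higher.

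Markers of cells the dissected layer could hold were summed on each array. Leukocyte markers were at 3421 to 4110 in the secretory and 9151 to 11816 in the maturation samples, with 5 of the 7 measured called higher, against 4.6% of all probes (3.15% were called lower). Dental epithelial markers were at 20980 to 23072 and 27009 to 31378, a sum made up mostly of Krt14 (14.11 and 14.64 on the log2 scale, not called). In the same list Epcam was not called (-0.04) and Cdh1 was called lower (-1.17). Odontoblast and osteoblast markers were at 30132 to 48307 and 40531 to 43926, of which Dspp, the odontoblast product, was not detected in any maturation sample and was at least 34.0-fold lower there on the background-corrected scale. In the same list Ibsp, a bone sialoprotein, rose by 1.95, the other 6 were not called, and Dmp1, a matrix protein of dentin and bone, was among them (0.98). The 3 measured markers of maturation ameloblasts, Wdr72, Slc24a4 and Car6, were at 294 to 363 and 8369 to 10094, and all 3 rose. Fibroblast markers were at 47878 to 53494 and 56012 to 60887. The part of these cell types in the results was not tested.

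The genes whose profile over the 8 arrays was most like that of each gene were found among 11227 probes detected on at least 4 arrays, by the root mean square difference of profiles centred on their own means. For Mmp20 they were Acp4 (0.197), Tcp11 (0.205) and Aldh1a1 (0.224). For Enam they were Gal3st4 (0.564), Cd24 (0.625) and Chst1 (0.643). For both Klk4 probes they were S100g, Csn3 and Car6, with 0.312, 0.397 and 0.509 for the first. For Amelx they were probes of ribosomal protein genes or of predicted genes similar to them (RGD1563503, Rps9 and LOC363418), and for Ambn Fgfr4, Spred2 and Acbd6.

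Genes next to the 5 on the chromosomes of GRCr8 were also listed, without the 5 themselves. Of 24 genes within 3 places on either side, 18 had a probe, 10 of them were detected on no array, and 0 were called higher or lower by limma, against 4.6% and 3.15% of all probes, so that 0 of 18 is near the background. Mmp10, near Mmp20, had a change of 0.83 (limma adjusted p = 1.38e-04), under the fold required. Ambn and Enam lie next to each other on chromosome 14, and their changes were -0.36 and -4.98. Mmp20 lies between Mmp27 and Mmp7 in a cluster of metalloproteinase genes, and neither was detected. Klk4 lies between Klk5 and Klk1c12 in the kallikrein cluster, and neither was detected.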

How the data were processed

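Total RNA of the 8 samples was hybridized to Illumina RatRef-12 v1 arrays. The authors deposited 1 table with a mean bead intensity per probe and array (a signal with neither background correction nor normalization), the detection p-value, the number (count) of beads and the standard error over beads. Probe sequences and the genome build of the annotation were not given in the sources used here. Replicates are separate rats, and their number, 4 per stage, limits the precision.

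Background was corrected by neqc of limma 3.58.1 in R 4.3.3 (negative controls estimated by way of the detection p-values), followed by an offset of 16, quantile normalization and log2. lmFit and eBayes tested all 22523 probes without a filter or block. Current symbols came by gene ID from RefSeq (GRCr8; 17430 probes matched), with older symbols matched through its synonyms. A gene of a list was taken by its probe with the highest mean signal. Samples of the same number come from the same rat; deviations from the stage means correlated at 0.195, 0.129, 0.219 and 0.234 within rats and at -0.212 to 0.121 between them, over 11233 probes. Alternatives were other background corrections and normalizations, an offset of 50, a detection filter, the methods' Student test, the replicate block and leaving out replicates. The script was tested on simulated data. Genes named are the 5, called members of the lists and those not called by role, and the 3 nearest profiles per gene. The 5 genes and all lists were chosen with earlier results of these data known.

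Marker lists were dental epithelium, maturation ameloblast, odontoblast and osteoblast, fibroblast, endothelium (summed level 3183 to 3839 in the secretory and 3353 to 3909 in the maturation samples), leukocyte, erythroid (14586 to 26215 and 22063 to 25575) and skeletal muscle (161 to 474 and 183 to 751). The values of 1 regulator are not reported here. Figures were drawn with matplotlib.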

Additional observations from a re-analysis of the deposited data

Results flagged for a closer look

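Among 32 sets of 4 values examined, 2 held a sample far from the other 3, and chance gives about 1.6 of 32. The log2 signal of the second Klk4 probe (ILMN_1370608) was 5.03 in secretory replicate 4, against 4.61 to 4.66 in the other secretory samples, and none of the 4 was detected. The first Klk4 probe was also highest in that sample (6.47 against 5.14 to 5.74). The summed level of the dental epithelial markers, mostly that of Krt14, was 27009 in maturation replicate 1, against 30943 to 31378 in the other maturation samples. Among the maturation samples, Amelx, Ambn, Enam and Mmp20 were highest in replicate 1. So were the fibroblast markers (60887), the summed signal (16122665) and the number of probes detected (11450).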

How the results depend on the processing

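Of the values recomputed under the alternatives, 437 kept their call (fold and adjusted p together) or stayed near their value, 5 gained a call, 11 moved, no tested value lost its call and 0 changed direction. The adjusted p alone crossed 0.05 more often without a change of call: for Amelx (0.0555) it was 0.0131 with normexp without negative controls, 0.0319 without background correction, 0.00721 with cyclic loess, 0.0440 without normalization, 0.0283 with the detection filter and 0.0321 with the replicate block (limma). Without maturation replicate 1 or 2 it was 0.0149 or 0.0405 for Amelx (limma). For Ambn (0.0353) it was 0.114 without normalization (limma) and 0.0938 by the Student test. With 1 sample left out it was 0.0580 to 0.0921 for Ambn, except without maturation replicate 1 (0.00134, limma). Counts over the lists also fell: other enamel genes called lower from 6 to 4 without normalization, and partners in proteolysis called higher from 5 to 4 without background correction and without secretory replicate 4. With median scaling Amelx (-1.12, limma adjusted p = 2.70e-04) and Ambn (-0.89, 6.23e-05) were called, so 4 of the probes were called lower, the difference Amelx minus Ambn was -0.24 (exact adjusted p = 0.0317), and 5 other enamel genes were called higher, as with cyclic loess (5) and without normalization (5). Without normalization 5 regulators and 3 uptake genes were called higher, and the median change of all probes was 0.13. Without background correction Enam minus Mmp20 was -1.08 (exact adjusted p = 0.0317). The cause was not tested. Leaving out 1 replicate gave 1 to 2 regulators called lower (2 without secretory replicate 3). The changes were then -0.68 to -0.33 for Amelx (limma adjusted p = 0.0149 to 0.116) and -0.49 to -0.29 for Ambn (0.00134 to 0.0921). They were -5.68 to -4.38 for Enam, -4.28 to -3.82 for Mmp20 and 7.35 to 7.80 for the first Klk4 probe. For the second Klk4 probe the fitted values were 7.10 to 7.31, against secretory samples in which it was not detected. Leaving out maturation replicates 1 and 4 together, chosen after seeing the data, gave Amelx -0.87 (limma adjusted p = 0.00433, now called), and differences of 5.74 for Amelx minus Enam, 6.06 for Ambn minus Enam, -2.17 for Enam minus Mmp20 and -14.16 for Enam minus Klk4. The replicate block (Enam -4.98, limma adjusted p = 0.00165) changed no call. By the methods' Student test the adjusted p was 0.150 for Amelx, 0.0938 for Ambn and 0.0139 for Enam. Over all probes, 528 were called higher and 399 lower without background correction, and 676 and 485 with normexp without negative controls. Signals near background and near the top of the range limit how well the folds of Enam, Mmp20, Klk4 and Amelx can be sized.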
